A study of Mus musculus with 21 samples.

Results

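The miR-132 and miR-212 cluster is a pair of neighbouring miRNA genes on mouse chromosome 11 whose mature products were followed in whole kidney for 28 days after folic acid. The members described here are 3 of the 1125 rows of the deposited table, chosen by name: miR-132-3p, miR-212-3p and miR-212-5p. All 3 were among the 431 miRNAs that passed a filter on low reads and were tested. The other arm of the miR-132 hairpin, miR-132-5p, also has a row and is given beside them. All animals were male BALB/c mice aged 12 weeks, and folic acid was given at 250 mg/kg in sodium bicarbonate. Kidneys came from day 0, from the first 3 days after it and from days 7, 14 and 28, with 3 small RNA libraries per day and 21 in all. A high dose of folic acid damages kidney tubules and serves as a mouse model of acute injury with later fibrosis. Whether the day 0 mice were injected is not stated, and the later days have no untreated group here, so folic acid, vehicle, injection and time since day 0 cannot be told apart. Nor is it stated that libraries of 1 day are from different mice, so each p-value reflects spread among libraries, which may be technical.

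A miRNA gene gives a hairpin RNA, from which the enzymes Drosha and Dicer cut a short duplex. Either strand of the duplex, the 5p or the 3p arm, can be loaded into Argonaute, where bases 2 to 8 of the strand, the seed, pair with target mRNAs. miR-132 and miR-212 are made from a shared primary transcript and are best known from neurons, where the factor CREB induces them. They are also known from macrophages after Toll-like receptor signals, from heart and fibroblasts after angiotensin II, and from pericytes and myofibroblasts of fibrotic kidney. Known targets of the 3p arms include Rasa1, a brake on Ras, and the transcription factor Foxo3.

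The sequences show why the 3p arms are treated as a family while the 5p arms are not. The mature RNAs, from RefSeq on GRCm38.p6, are written 5′ to 3′ with the seed in capitals:
miR-132-3p: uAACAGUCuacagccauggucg
miR-212-3p: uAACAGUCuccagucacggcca
miR-212-5p: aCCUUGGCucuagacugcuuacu
miR-132-5p: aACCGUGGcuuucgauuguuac
The 3p arms carry the same seed and are identical over their first 9 bases. Counted from 1 at the 5′ end, with the base of miR-132-3p first, they differ by A10C, C14U, U17C, U20C and G22A, so 17 of 22 bases are the same. No other mature mouse miRNA in the RefSeq table has that seed, and the seeds of miR-212-5p and miR-132-5p each occur in that table once.

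Both hairpins lie on the plus strand of chromosome 11 in GRCm38.p6, Mir212 at chr11:75173388-75173478 and Mir132 at chr11:75173682-75173747, with 203 bases between them. GENCODE places both in intron 1 of the non-coding gene 1700016P03Rik, which has 3 exons and runs on the same strand from 75172560 to 75177633. The nearest protein-coding genes that do not overlap the hairpins are Hic1 before them and Ovca2 after them, both on the minus strand. The submitters used the build mm9, and these coordinates were not used with their data. The hairpins show how the arms sit in each precursor, with the mature arms in capitals and the 5p arm first:
Mir212: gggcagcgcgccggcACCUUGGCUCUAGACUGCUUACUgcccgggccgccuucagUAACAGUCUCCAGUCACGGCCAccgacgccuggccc
Mir132: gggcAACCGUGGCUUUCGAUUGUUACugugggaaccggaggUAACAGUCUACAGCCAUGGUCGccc

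The libraries held between 2875675 and 7110546 reads assigned to miRNAs, and the limit for a miRNA with no read, 3 reads, was 1.04 CPM in the shallowest. Levels are CPM (counts scaled to a common library total) after TMM scaling, which corrects for a few abundant miRNAs taking up a library. Changes are log2 differences of CPM + 1 from limma over the 431 miRNAs that passed the filter on low reads, called at an adjusted p (Benjamini-Hochberg) under 0.05. Day 14 replicate 3 stood apart from the other libraries of its day: on the first principal component, which held 41.1% of the variance, it lay at 6.87, against 1.70 and 1.20 for the others and between 5.35 and 8.48 for day 7. Most contrasts of the members with day 14, and the late against early ratios between members, are therefore given with and without it. Calls of other miRNAs, counts over all tested miRNAs, the means of day 14 and the likeness of courses include it. As a check on the tissue, miR-192-5p, a miRNA enriched in kidney tubules, stood between 55383 and 123303 CPM in all libraries, and the neuronal miR-124-3p had at most 0.32 CPM in any.

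miR-132-3p, the most abundant product of the cluster, was high by the first day and stayed high for 2 weeks. At day 0 it stood at 56.6, 51.2 and 46.1 CPM in the 3 libraries, and at day 1 at 264, 251 and 215 CPM. The lowest day 1 library was far above the highest of day 0. The mean rose from 51.3 ± 5.25 to 243 ± 25.7 CPM (SD, n = 3 per day), 4.75-fold, with a log2 change of 2.22 (SE 0.20, adjusted p = 3.53e-08), when 14.2% of all tested miRNAs were called higher. It was the 3rd largest rise among the 431. Libraries of day 2 held 288, 269 and 256 CPM, those of day 3 held 289, 291 and 288 CPM, and those of day 7 held 350, 300 and 289 CPM. Day 7, with a mean of 313 ± 32.6 CPM, was the highest day, at 6.10-fold of day 0, and day 1 had already reached 77.8% of it. The step from day 1 to day 7 did not pass the test (log2 0.36, SE 0.20, adjusted p = 0.163).

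The fall of miR-132-3p came late and was uneven between libraries. Day 14 libraries held 224, 179 and 351 CPM, and day 28 libraries 95.5, 84.4 and 150 CPM. Replicate 3 was the high library on both days, and on day 14 it matched the highest library of day 7. Day 14 against day 0 gave a log2 change of 2.22 (adjusted p = 4.47e-08), and 1.93 without day 14 replicate 3. Day 14 was not called lower than day 7 with all libraries (log2 -0.37, adjusted p = 0.358), but was without that library (-0.63, adjusted p = 0.0294). From day 14 to day 28 the level fell by 1.17 on the log2 scale (adjusted p = 0.00112, with 7.66% of all miRNAs called lower), and by 0.89 without that library (adjusted p = 0.0115). Day 28 was still above day 0 without overlap, at 110 ± 35.4 CPM (log2 1.05, SE 0.20, adjusted p = 8.33e-04), when 11.1% of all miRNAs were called higher.

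miR-212-3p, the partner with the same seed, was less abundant throughout and also rose within the first day. Its day 0 libraries held 8.08, 6.89 and 4.63 CPM, from 16 to 36 reads each, and its day 1 libraries 46.2, 37.8 and 34.0 CPM. The mean went from 6.53 ± 1.75 to 39.4 ± 6.25 CPM, 6.02-fold, the 2nd largest rise of the 431 on that day (log2 2.44, SE 0.24, adjusted p = 1.32e-07). On days 2, 3 and 7 the libraries lay between 40.5 and 49.7 CPM, and the highest mean was that of day 3, 47.6 ± 2.63 CPM, 7.28-fold of day 0. Day 1 stood at 82.7% of that peak.

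From day 7 to day 14 miR-212-3p fell by 0.85 on the log2 scale (SE 0.24, adjusted p = 0.0435), when 3.25% of all miRNAs were called lower. Day 14 libraries held 18.9, 19.6 and 39.8 CPM, with replicate 3 again the high one, though under all day 7 libraries (43.5, 46.2 and 45.8 CPM). Against day 0, day 14 gave a log2 change of 1.79 (adjusted p = 5.49e-06), and 1.44 without replicate 3 of that day. Without that library the fall from day 7 was 1.18 on the log2 scale (adjusted p = 0.00132). The call was also kept without day 0 replicates 1 or 3, day 1 replicate 3 or day 28 replicate 3, and was lost without any of the other 16 libraries (adjusted p up to 0.264). It was also lost with edgeR on the recovered reads (0.0636), library totals (0.0573), a minimum mean of 10 CPM (0.0575), no filter (0.143), upper-quartile scaling (0.0991) and only the days compared (0.254), where the numbers in brackets are adjusted p. Day 28 libraries held 10.3, 10.5 and 18.3 CPM, all above day 0 (log2 0.88, SE 0.24, adjusted p = 0.0160), when 11.1% of all miRNAs were called higher. The day 28 call missed the threshold when day 0 replicate 3 was left out (adjusted p = 0.105), when day 28 replicate 3 was (0.123) and with library totals in place of TMM (0.0601). The further fall from day 14 to day 28 (log2 -0.91, adjusted p = 0.0196) did not pass once day 14 replicate 3 was left out (-0.56, adjusted p = 0.150), nor with either of day 28 replicates 1 and 2 left out (0.0762 and 0.144).

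Because the 3p arms share a seed, their levels were also summed as the pool of RNAs with that seed. The pool stood at 57.8 ± 6.98 CPM at day 0, 283 ± 31.4 at day 1, 316 ± 19.4 at day 2, 337 ± 1.35 at day 3, 358 ± 31.2 at day 7, 278 ± 101 at day 14 and 123 ± 39.9 at day 28 (SD, n = 3 per day). It was thus 4.89 times its day 0 level on day 1, 6.19 times on day 7 and 2.13 times on day 28. Day 14 had the widest range, with 243 and 198 CPM in its first and second libraries and 391 CPM in replicate 3. Even at its peak miR-132-3p ranked only 97th in level among the 431 tested miRNAs, up from 182nd at day 0.

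**Figure D1:**
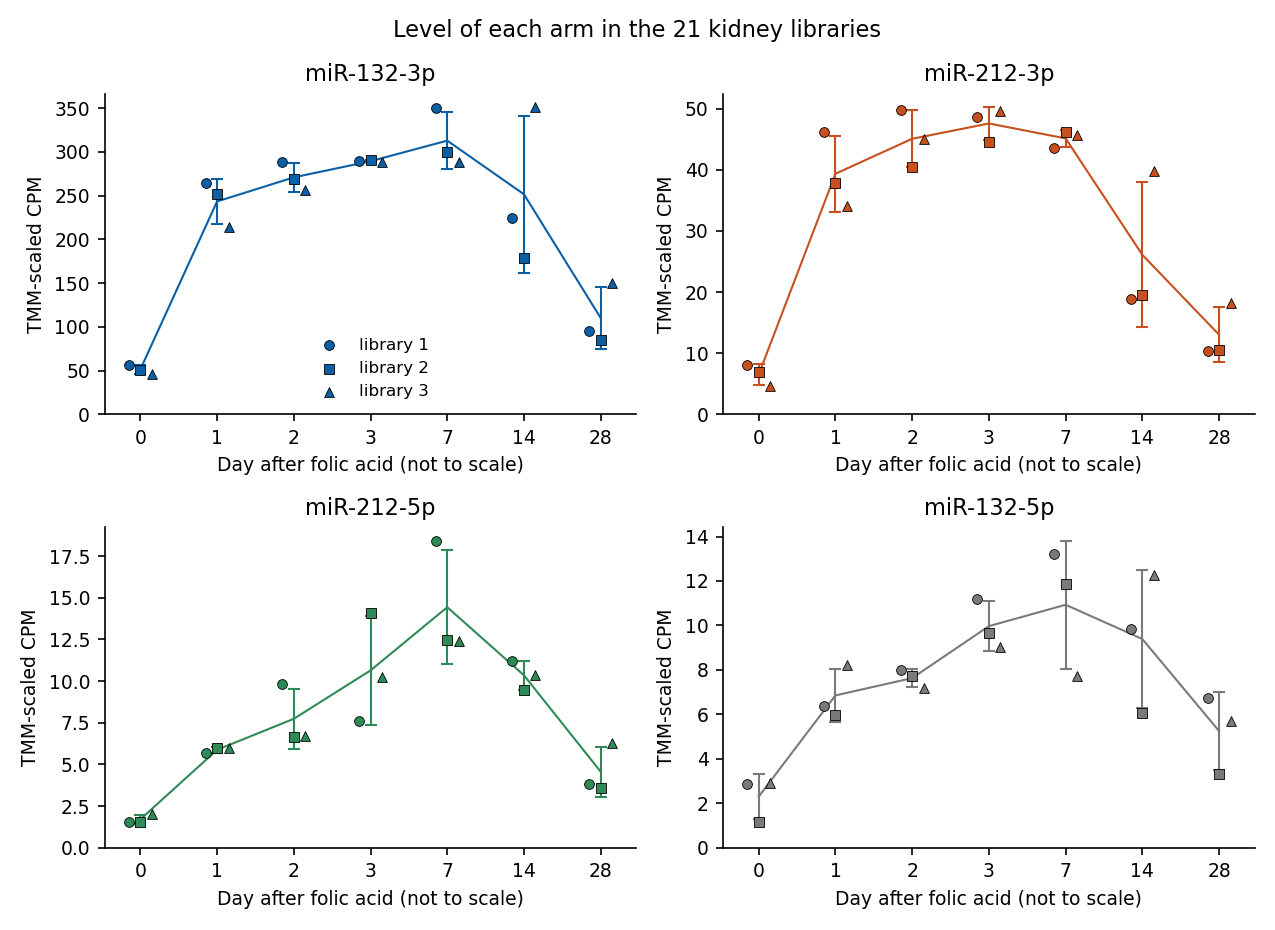
TMM-scaled CPM (vertical axes, each with its own scale from 0) of the 4 arms in each library by day after folic acid. Symbols are the 3 libraries of a day, lines join the day means and bars are SD; the 3p arms are near their peak by day 1, with 243 and 39.4 CPM, while miR-212-5p climbs from 5.88 CPM on day 1 to 14.4 CPM on day 7.

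miR-212-5p, the other strand of the miR-212 duplex, rose more gradually. At day 0 it was scarce, with 1.57, 1.53 and 2.03 CPM in the libraries, from 6 to 8 reads each. It passed the filter only through later days, since no day 0 library reached the 2.22 CPM that 10 reads make in a library of median depth, so its calls against day 0 are given as values and support nothing. Day 1 libraries held 5.69, 5.97 and 5.98 CPM, and day 2 libraries 9.83, 6.67 and 6.71 CPM. On day 3 they held 7.60, 14.1 and 10.2 CPM, and on day 7 18.4, 12.5 and 12.4 CPM. From day 1 to day 7 the mean went from 5.88 ± 0.161 to 14.4 ± 3.43 CPM. Day 1 was therefore at 40.7% of the peak of day 7.

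The step of miR-212-5p from day 1 to day 7 passed the test (log2 1.14, SE 0.22, adjusted p = 6.08e-04), when 21.3% of all miRNAs were called higher. Neither 3p arm passed that step, with miR-212-3p at a log2 change of 0.20 (adjusted p = 0.560); the ratios between arms are tested further on. Day 14 libraries held 11.2, 9.46 and 10.4 CPM, so replicate 3, which was high in both 3p arms, lay between the other libraries in miR-212-5p. Day 28 libraries held 3.85, 3.57 and 6.28 CPM, and the fall from day 14 to day 28 passed the test (log2 -1.06, SE 0.22, adjusted p = 0.00522; -1.04 and 0.0261 without day 14 replicate 3). Against day 0 the log2 change of miR-212-5p was 1.35 on day 1, 2.49 on day 7 and 1.01 on day 28 (adjusted p = 1.04e-04, 1.25e-08 and 0.00281). The scale of CPM + 1 understates the change of so scarce an RNA, whose mean level on day 7 was 8.45 times that of day 0.

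miR-132-5p, the other strand of the miR-132 duplex, was as scarce. It stood at 2.30 ± 1.00 CPM at day 0, 6.85 ± 1.20 at day 1, 9.97 ± 1.11 at day 3, 10.9 ± 2.87 at day 7 and 5.25 ± 1.75 at day 28 (SD, n = 3 per day). Day 1 was at 62.7% of its peak, which also fell on day 7. It was called higher than day 0 on all 6 later days, with log2 changes from 0.93 on day 28 to 1.87 on day 7, and 2 of 3 day 0 libraries reached the filter's 2.22 CPM. Since the filter asks for 3, it too entered the test only through later days, and these calls support nothing. The call of day 28 (adjusted p = 0.0242) was lost in 7 of 32 alternative settings.

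By the F test miR-132-3p and miR-212-3p changed over the course (adjusted p = 3.28e-09 and 1.01e-08), as did 63.1% of all tested miRNAs. The F test is made of the 6 contrasts against day 0. Its adjusted p for miR-212-5p, which entered the test only through later days, was 1.12e-07 and adds nothing. On each of the 6 later days all 3 members were called higher than day 0, which held for 4.41% of tested miRNAs. For miR-212-5p this adds nothing either. These comparisons share the same 3 day 0 libraries. Of all tested miRNAs, 24.4% were called higher on day 2, 30.4% on the third day, 29.7% on day 7 and 25.1% on day 14.

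**Figure D2:**
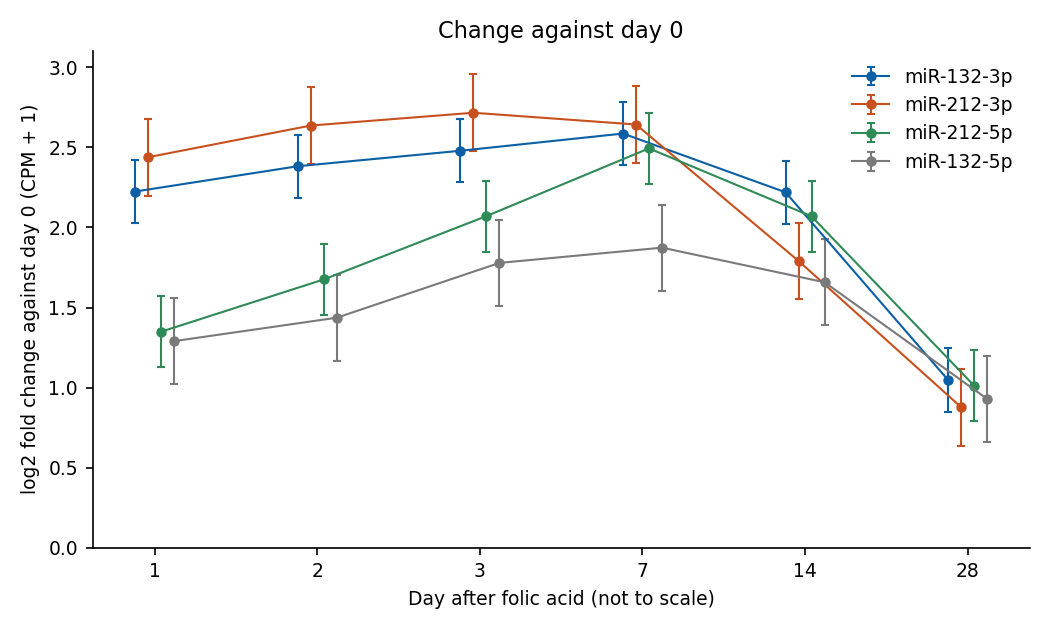
Log2 fold change of each arm against day 0 (vertical axis, on CPM + 1) on each later day, with SE bars from limma. The 3p arms start at 2.22 and 2.44 on day 1 while miR-212-5p starts at 1.35, and the 3 members lie between 0.88 and 1.05 on day 28. This scale understates the change of the scarce miR-212-5p. As ratios of means, miR-132-3p, miR-212-3p and miR-212-5p stood at 4.75, 6.02 and 3.44 on day 1 and at 2.15, 1.99 and 2.67 on day 28. The calls of both 5p arms against day 0 support nothing.

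Ordered by level, the days split into the same lowest pair for each member, day 0 and then day 28. For miR-132-3p the order then ran day 1, day 14, day 2, day 3 and day 7, and no neighbours among these 5 differed beyond their spread (adjusted p from 0.599 to 0.992). Without day 14 replicate 3, day 14 lay below day 1, also without passing (log2 -0.28, adjusted p = 0.277). Day 28 and day 1 did differ (log2 1.18, adjusted p = 1.32e-04), when 10.4% of all miRNAs were called lower on day 28 than on day 1. For miR-212-3p the order was day 28, day 14, day 1, day 2, day 7 and day 3. Day 1 exceeded day 14 (log2 0.65, adjusted p = 0.0458, with 12.8% of all miRNAs called lower on day 14 than on day 1), and the days above it did not differ from their neighbours (adjusted p from 0.695 to 0.987). That call for day 14 against day 1 was lost without 12 of the 21 libraries in turn (adjusted p up to 0.205), among them day 14 replicates 1 and 2 and day 1 replicates 1 and 2, while without day 14 replicate 3 it was 0.99 on the log2 scale (adjusted p = 0.00229). The other 8 were day 0 replicate 2, the 3 of day 2, day 3 replicates 2 and 3, day 7 replicate 3 and day 28 replicate 2. It also went with edgeR (adjusted p = 0.0738), library totals (0.0631), a minimum mean of 10 CPM (0.0723), no filter (0.0705), a pseudocount of 0.5 (0.0505) and only the days compared (0.168). For miR-212-5p the order was day 28, day 1, day 2, day 14, day 3 and day 7, and no neighbours above day 0 differed (adjusted p from 0.216 to 0.997).

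The balance between the products of the cluster shifted in the course of the 4 weeks. Within a library a ratio of reads does not depend on scaling, and the pseudocount of 1 CPM used here moved no late against early call. The ratios were compared between libraries of days 1, 2 and 3 (early) and those of days 7, 14 and 28 (late), 9 against 9, and between day 0 and all later days (3 against 18). These were 6 exact permutation tests, two-sided, with p adjusted over the 6. Libraries of different days were pooled in them, and each library counted as an independent unit, also of the others of its day. The p-values thus speak of libraries, not of days. With days as units, 3 early days against 3 late ones cannot go below an exact p of 0.10. For single days, 3 libraries against 3 have the same limit, so days are given as values.

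Of the reads of both miR-212 arms, the 5p arm held 21.6% ± 7.70 at day 0, 13.2% ± 2.03 at day 1, 14.5% ± 1.81 at day 2 and 18.2% ± 5.33 at day 3 (SD, n = 3 per day). It then held 24.1% ± 4.85 at day 7, 30.2% ± 8.56 at day 14 and 26.1% ± 0.926 at day 28. Day 14 was split, with 37.3% (Wilson 95% interval 30.0 to 45.1), 32.6% (23.6 to 43.0) and 20.7% (15.8 to 26.6) in its libraries. Over the 9 early libraries the share was 15.3% ± 3.75, and over the 9 late ones 26.8% ± 5.62. The ratio of miR-212-5p to miR-212-3p was 1.98-fold higher late than early (log2 0.99, adjusted exact permutation p = 9.87e-04). It was 1.05 on the log2 scale without day 14 replicate 3 and 0.89 with day 14 left out altogether.

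The ratio of miR-212-3p to miR-132-3p moved the other way. miR-212-3p made up 11.2% ± 1.78 of the reads with the shared seed at day 0, between 13.9% and 14.3% on average on days 1, 2 and 3, and then 12.7% ± 1.43 at day 7, 9.27% ± 1.32 at day 14 and 10.5% ± 0.671 at day 28. The lowest early library held 13.1%, and 7 of the 9 late ones lay under it. The ratio was 0.750 times as high late as early (log2 -0.42, adjusted exact permutation p = 0.00148), with -0.40 without day 14 replicate 3 and -0.29 with all of day 14 left out. miR-212-5p rose late against miR-132-3p (log2 0.57, adjusted exact permutation p = 0.00337), by 0.64 and 0.60 under the same omissions. In each library this log2 ratio is the sum of the 2 before it, so it is not a separate shift.

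Against day 0, none of the 3 ratios passed (adjusted exact permutation p from 0.217 to 0.803). Day 0 rests on 6 to 8 reads of miR-212-5p per library, and its 5p share of miR-212 ran from 16.2% (Wilson 95% interval 7.65 to 31.1) to 30.4% (15.6 to 50.9). The day 0 mean of 21.6% had the means of days 1, 2 and 3 below it and those of days 7, 14 and 28 above. With a pseudocount of 5 CPM, which is more than the day 0 level of miR-212-5p, all 3 ratios were lower than at day 0 and passed (log2 -0.34, -0.73 and -1.07, adjusted exact permutation p = 0.00541, 0.0406 and 0.00290). For miR-132, the 5p arm held 2.95% ± 0.516 of the reads of both arms over the 9 early libraries and 3.88% ± 1.11 over the 9 late ones. Its ratio was higher late by 0.40 on the log2 scale (unadjusted exact permutation p = 0.0117). Against day 0 it went the other way over all later days, with a log2 difference of -0.66 (unadjusted exact permutation p = 0.0376), and -0.27 from reads with no pseudocount (p = 0.329, exact permutation). These tests pooled days in the same way and were added after the data were seen. Whether the shift was larger in miR-212 than in miR-132 was not tested.

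**Figure D3:**
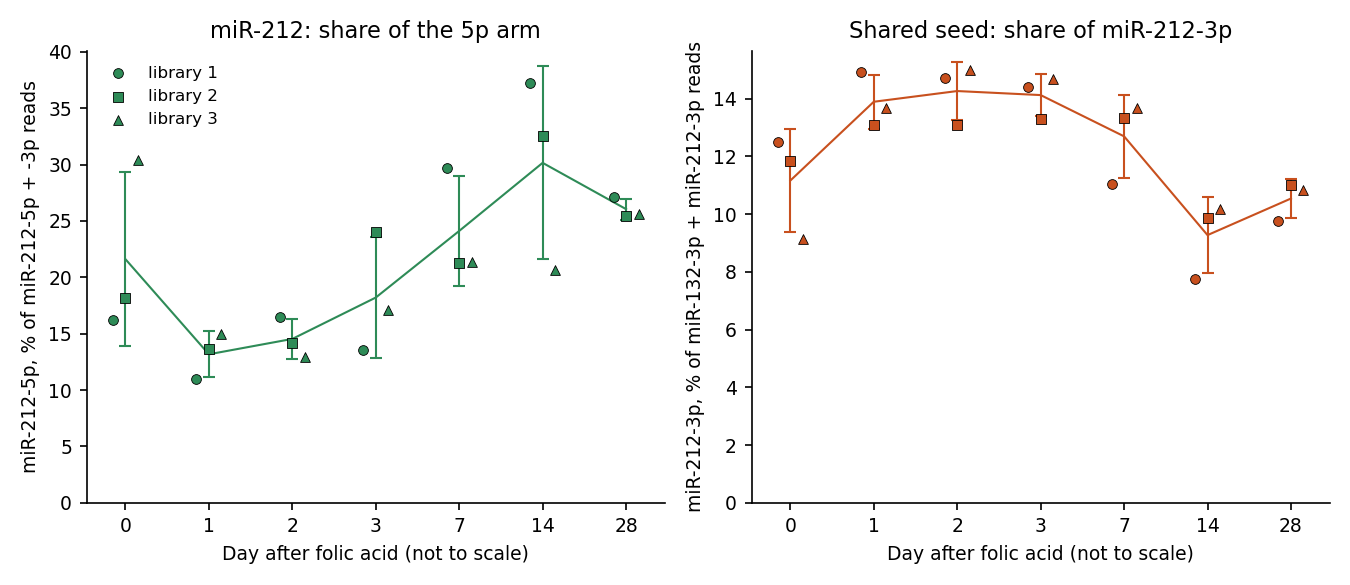
Left, miR-212-5p as a percentage of all miR-212 reads; right, miR-212-3p as a percentage of the reads of both 3p arms, in each library by day (symbols, with day means joined and SD bars). The 5p share rises from 13.2% on day 1 to 30.2% on day 14, and the miR-212-3p share falls from 14.3% on day 2 to 9.27% on day 14.

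Markers of other cells were set beside these courses, since in whole kidney fewer cells of a type and less RNA per cell cannot be told apart. The sums below are in deposited CPM. The 8 leukocyte miRNAs, all detected, summed to between 928 and 1194 CPM at day 0, between 1401 and 1521 at day 1, between 2434 and 3515 at day 7 and between 1753 and 1986 at day 28. Of these 8, 4 rose by day 1 and 6 by day 7, when 14.2% and 29.7% of all tested miRNAs were called higher, with a median log2 change of 0.32 on day 1 and 1.63 on day 7, beside medians over all tested miRNAs of -0.00 and 0.07. The 2 not called on day 7 were miR-150-5p, known from lymphocytes (log2 -0.20), and miR-155-5p (0.27). Among the 6 called, miR-511-3p and miR-511-5p stood at no more than 1.68 and 1.02 CPM at day 0, under the filter's 2.22 CPM. They entered the test only through later days, so these 2 calls support nothing. The medians of the list include both. miR-142-3p, present in all blood cell lines, rose by 0.93 on day 1 and 2.02 on day 3 (log2). miR-223-3p of the same list was at 1.69 and 2.32, and miR-132-3p at 2.22 and 2.48 on those days.

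The 5 mesenchymal miRNAs, arms of miR-199a, miR-199b and miR-214, summed to between 1773 and 2378 CPM at day 0, between 1811 and 2502 at day 1 and between 5717 and 6354 at day 7. All 5 rose by day 7, when 29.7% of all miRNAs were called higher, with a median log2 change of 1.70 against 0.07 over all tested. On day 1 none was called, and the median was 0.27 against -0.00. Of the 6 kidney tubule miRNAs with a row, 3 fell by day 1, when 11.1% of all miRNAs did. On day 7, 3 were lower and 1, miR-204-5p, was higher, beside 22.7% and 29.7% of all miRNAs. They summed to between 413336 and 458005 CPM at day 0 and between 383689 and 434189 at day 7. On day 14 the mesenchymal sum was 9510 CPM in replicate 3, against 5640 and 5109 in the others, and the tubule sum was 402862 against 441528 and 458484. Most of the mesenchymal sum was miR-199a-3p, at 8402 CPM in replicate 3 and 4939 and 4447 in the others. The other arms of that list were also highest in replicate 3. The leukocyte sum of replicate 3, 2556 CPM, lay between those of the others, 2585 and 2214. The part of these cells in the levels of the cluster was not tested.

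Markers of vessels, blood and neurons moved less or otherwise. The neuronal list, included since miR-132 and miR-212 are known from neurons, summed to between 267 and 416 CPM over all libraries, most of it miR-9-5p at 175 to 278 CPM, while the neuron-defining miR-124-3p was at 0 in 19 of 21 libraries. Of its 5 tested members, miR-138-5p was called higher on days 2, 7 and 14 (log2 0.44, 0.43 and 0.48, adjusted p = 0.0467, 0.0439 and 0.0287), and the other 4 were not called on any day. Both arms of miR-126, an endothelial miRNA, were called lower on days 2, 3, 7 and 14, when 19.0%, 19.0%, 22.7% and 17.9% of all miRNAs were, with a median log2 change of -0.41 on day 2. Of the smooth muscle miRNAs, miR-145-5p was called higher on days 1, 3 and 14 (log2 0.78, 0.65 and 0.85, adjusted p = 0.0236, 0.0302 and 0.00790), and miR-143-3p was not called on any day (log2 -0.01 on day 1). The red blood cell list was the most uneven: its sum lay between 1251 and 3227 CPM at day 0 and between 5398 and 10219 at day 2, when 3 of its 4 miRNAs were higher beside 24.4% of all. On day 3 2 of the 4 were lower, beside 19.0% of all.

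**Figure D4:**
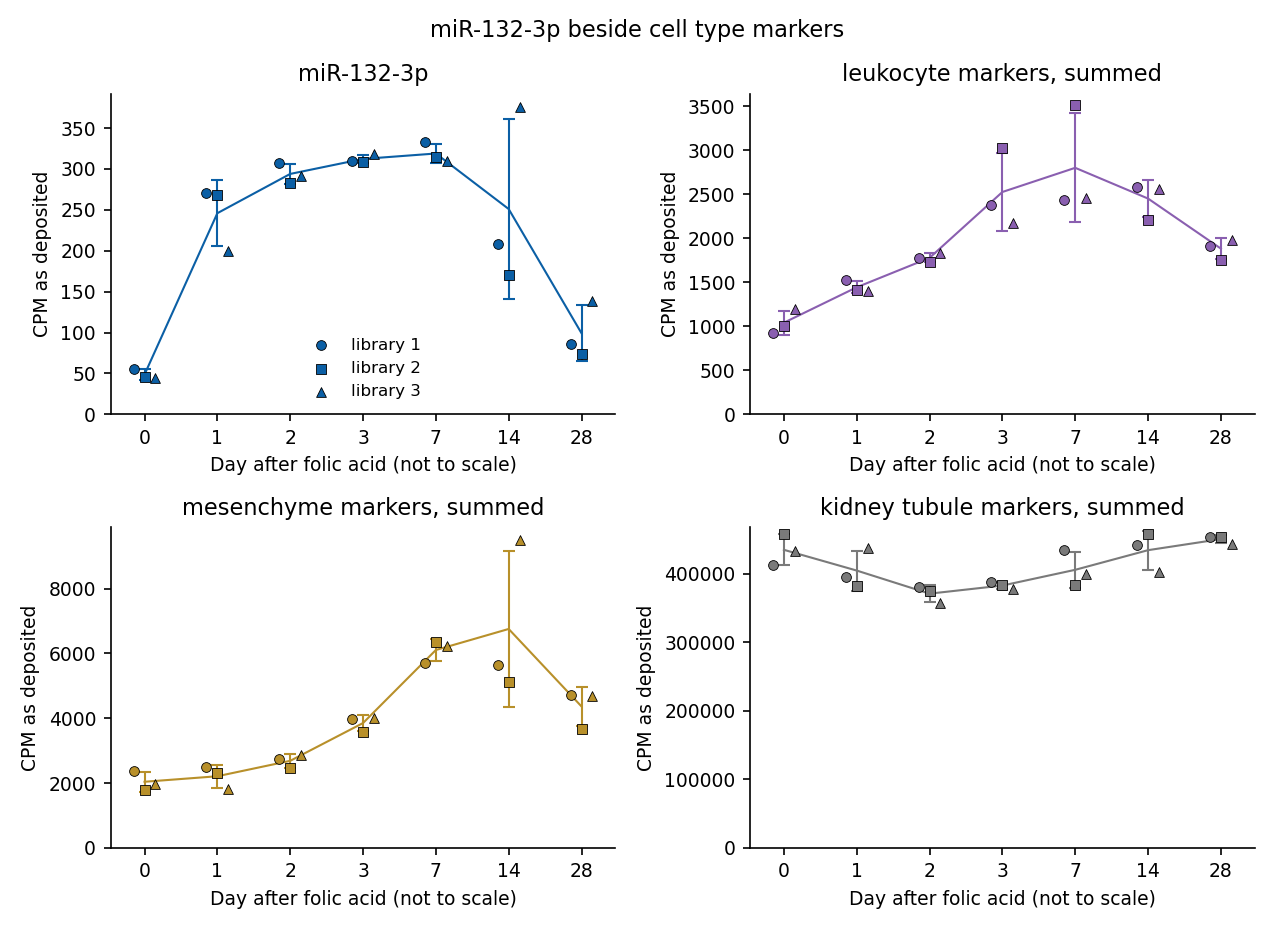
Deposited CPM of miR-132-3p and summed deposited CPM of the leukocyte, mesenchymal and kidney tubule lists in each library by day (symbols), with day means joined and SD bars. On day 7 the leukocyte and mesenchymal sums lie between 2434 and 3515 CPM and between 5717 and 6354 CPM, and day 14 replicate 3 is the highest library both in miR-132-3p and in the mesenchymal sum, at 9510 CPM. Most of the mesenchymal sum is miR-199a-3p, and miR-10a-5p and miR-10b-5p weigh heavily in the tubule sum.

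A list of miRNAs linked to NF-kB or Toll-like receptor signals was also followed, since the cluster is known from macrophages after Toll-like receptor signals. Of the 10 listed, 9 were tested, miR-155-3p being too scarce. On day 1, 6 of the 9 rose and 1, miR-146a-5p, fell, when 14.2% of all miRNAs were called higher and 11.1% lower. Among the 6, miR-147-3p stood at no more than 1.02 deposited CPM at day 0, under the filter's 2.22 CPM. It entered the test only through later days, so its calls against day 0 support nothing. On day 28 4 of the 9 were higher, beside 11.1% of all miRNAs. The median log2 change of the 9 was 1.17 on day 1, 1.75 on day 3 and 0.62 on day 28, against -0.00, 0.06 and 0.03 over all tested miRNAs. These medians include miR-147-3p, and that of day 3 is its own value. The values next to it in order on day 3 were 0.77 (miR-155-5p) and 2.32 (miR-223-3p). miR-21-5p, which is raised in many injured tissues, went from 14742 ± 1621 to 59455 ± 3561 CPM by day 1 (log2 2.02, SE 0.15, adjusted p = 4.29e-09), with a log2 change of 2.65 for its other arm, miR-21-3p.

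Within this list the courses differed. miR-155-5p, a miRNA of activated immune cells, was higher on day 1 (log2 0.70, adjusted p = 1.70e-04) but was not called on day 7 (0.27, adjusted p = 0.0593). miR-146a-5p, which dampens Toll-like receptor signals, was lower on day 1 (log2 -0.59, adjusted p = 0.0464) and higher on day 14 (1.04, adjusted p = 5.92e-04). Its relative miR-146b-5p rose by 1.17 on day 1 and 2.80 on day 14. miR-9-5p was not called on any day, and miR-125b-5p was called, as lower, on day 3 alone of the 6. The list shares miR-223-3p and miR-155-5p with the leukocyte list and miR-9-5p with the neuronal list.

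The miRNAs whose courses were most like those of the members were found by the root mean square difference between centred profiles of mean log2(CPM + 1) over the 7 days, where 0 would be the same shape. For miR-132-3p these were miR-19a-3p (0.218), miR-21-5p (0.221), miR-212-3p (0.233), miR-223-3p (0.236) and miR-212-5p (0.323), against a median of 0.904 over all others. For miR-212-3p they were miR-21-5p (0.123), miR-132-3p (0.233), miR-19a-3p (0.288), miR-18a-5p (0.294) and miR-223-3p (0.297), with a median of 0.997. On this scale miR-212-3p and miR-21-5p lay closer in shape than the 2 arms that share a seed, although miR-21-5p was far more abundant and the ratio of its mean to day 0 was smaller on each later day. miR-223-3p is a miRNA of myeloid cells, and miR-18a-5p and miR-19a-3p come from the miR-17-92 cluster.

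miR-212-5p had other neighbours. The closest were miR-223-5p (0.192), miR-132-5p (0.204), miR-183-5p (0.214), miR-142-3p (0.223) and miR-96-5p (0.233), with a median of 0.776 over all others. miR-132-5p, the 5p arm of the neighbouring hairpin, was thus the 2nd nearest, while miR-212-3p, cut from the same hairpin as miR-212-5p, ranked 52nd at 0.507. Adding 1 to CPM flattens the profile of a scarce miRNA more than that of an abundant one, and the part of this in the ranks was not tested. The profiles share the same 21 libraries, so likeness is a description.

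**Figure D5:**
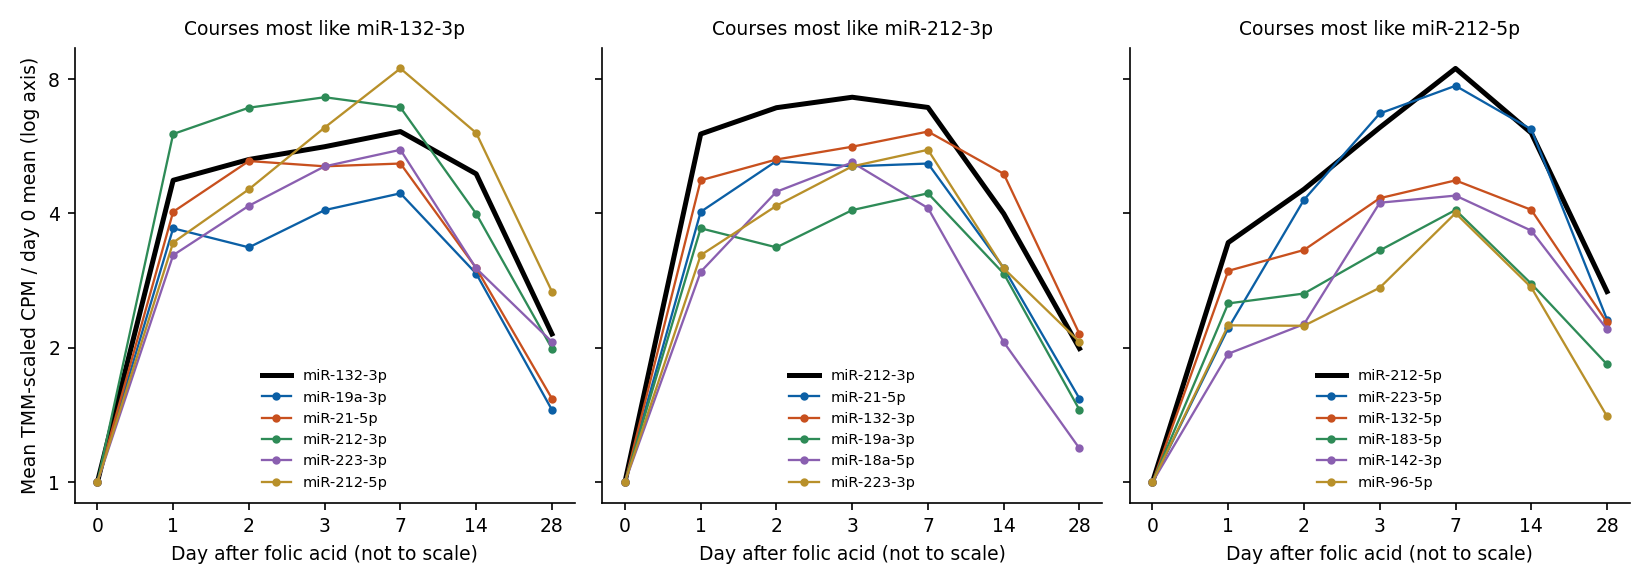
Mean TMM-scaled CPM of each member and of the 5 miRNAs most like it, as a ratio to the day 0 mean (log2 axis), by day. miR-212-3p lies above the 5 others of its panel on days 1, 2, 3 and 7, reaching 47.6 CPM on day 3 from 6.53 CPM at day 0, while miR-21-5p goes from 14742 to 75182 CPM.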

How the data were processed

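Small RNA from whole kidney was sequenced in 21 libraries, 3 for each of 7 days. The authors deposited CPM per mature miRNA, each library summing to the same total. CASAVA 1.8 and the build mm9 were used per the submitters' processing notes; which aligner, counting tool and miRBase release were used was not given in the sources used here. Low values moved in steps of 1 read, and all deposited values came out within 0.05 of whole read counts, which gave the depths, the Wilson 95% intervals and the floor of 3 reads (0.422 to 1.04 CPM). These cover counting error only, since PCR copies are not independent molecules. All table columns were used.

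Of 1125 miRNAs, 250 had no read and 431 passed edgeR's filterByExpr (at least 10 reads in a library of median depth, in 3 libraries). CPM was scaled by TMM (edgeR 4.0.16) and log2(CPM + 1) fitted with limma 3.58.1 (trend) in R 4.3.3, with a mean for each day and no block. All 21 contrasts between days and an F test were taken from that fit, with Benjamini-Hochberg adjustment over the 431. Fold changes on this scale understate those of scarce miRNAs. Ratios between arms were log2((CPM + 1)/(CPM + 1)) per library, tested by exact two-sided permutation over libraries (scipy 1.17.1); printed shares are of reads. Alternatives were other scalings, pseudocounts, filters, a replicate block, only the days compared, each library left out, and edgeR and DESeq2 1.42.0 on the recovered counts. The limma, edgeR and DESeq2 fits were also run on simulated counts with known changes on day 1. That simulation did not cover the permutation tests or a library that stands apart from its day.

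The members and lists were chosen with earlier results of these data known. Besides the members and miR-132-5p, the text names tested miRNAs of the marker and NF-kB lists and, for each member, the 5 most alike in course. Sequences and coordinates are from RefSeq and GENCODE M21 on GRCm38.p6.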

Additional observations from a re-analysis of the deposited data

How the results depend on the processing

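Against day 0, 585 of 588 values of the members under alternatives kept their call. The 588 include 32 per day for miR-212-5p, whose calls against day 0 support nothing. The exceptions are 3 of miR-212-3p on day 28. That contrast was 0.80 on the log2 scale with library totals (adjusted p = 0.0601). It was 0.65 without day 0 replicate 3 and 0.64 without day 28 replicate 3. Over all libraries left out in turn it ran from 0.64 to 1.01. For miR-212-3p, day 28 against day 14 lost its call with no filter (-0.91) and with only the 2 days fitted (-0.92), and ran from -1.14 to -0.56 with a library left out. Day 14 against day 1 (-0.65) lost it with edgeR (-0.59), library totals (-0.68), a mean of at least 10 CPM (-0.62), no filter (-0.70), only the 2 days (-0.64) and a pseudocount of 0.5 (-0.66), and ran from -0.99 to -0.47. Day 14 against day 7 (-0.85) lost it with edgeR (-0.79), library totals (-0.91), a mean of at least 10 CPM (-0.84), no filter (-0.82), only the 2 days (-0.84) and upper-quartile scaling (-0.70), and ran from -1.18 to -0.66. For miR-132-3p that contrast ran from -0.63 to -0.15. The cause of these losses was not tested.

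Replicate numbers did not pair the libraries: same-numbered libraries of different days correlated in their deviations by -0.363 to 0.267 (median -0.0193), and 6 of 21 correlated best with their own number. With the replicate block, 75 of 77 results kept their call, and miR-212-3p lost day 14 against day 1 (-0.65, adjusted p = 0.0544) and against day 7 (-0.85, adjusted p = 0.0608).

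With a pseudocount of 5, the ratios of all later days to day 0 were -0.34 for miR-212-3p to miR-132-3p, -0.73 for miR-212-5p to miR-212-3p and -1.07 for miR-212-5p to miR-132-3p (adjusted exact permutation p = 0.00541, 0.0406 and 0.00290), the first with its sign reversed; 5 CPM exceeds the day 0 level of miR-212-5p. Late against early ratios kept their calls in every alternative run, those added after the data were seen included (day 14 left out; reads with no pseudocount). The seed pool was 342.9 CPM on day 2 and 364 on day 3 with library totals, 329.6 on day 3 with RLE and 329 with upper-quartile scaling. Of the mesenchymal list, 1 was higher on day 1 with only the 2 days (0 to 1 with a library left out). Of the tubule list, 1 was lower on day 1 with no filter (1 to 3 with a library left out), 2 on day 3 with library totals, and 1 on day 28 with DESeq2, RLE, library totals or upper-quartile scaling (0 to 1 with a library left out). The miRNAs called on day 28 numbered 56, and 37 to 66 with a library left out, the fewest without day 28 replicate 1. On the recovered reads, which were whole for 100% of values, edgeR called 105, 193, 211, 225, 184 and 52 miRNAs against day 0 on the later days in order, beside 109, 187, 213, 226, 185 and 56 with limma. Scaling moved the median of all miRNAs by up to 0.18 on the log2 scale (0.18 with library totals on day 2, -0.18 with upper-quartile scaling on day 7). At day 0 the 5p arms rest on 6 to 11 reads per library.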
